A study of Mus musculus with 18 samples.

Results

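Mitochondrial ribosomal proteins build the ribosome that works inside mitochondria, and their messenger RNAs were followed here in epididymal fat of mice from zygotes that had been injected with a let-7 microRNA. Members were the protein-coding genes whose symbol is Mrpl or Mrps followed by a digit. The annotation holds 78 of them and 77 were measured, 48 named for the large subunit (Mrpl) and 29 for the small one (Mrps), among 16452 genes in the count table. Mrpl53 was not analysed here. All 77 had a mean of at least 5 CPM (read counts scaled to a common library size), from 7.57 CPM for Mrpl23 to 84.2 CPM for Mrps7, and the lowest count of any member in any library was 87 reads.

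The tissue was epididymal white adipose tissue (eWAT), the fat pad beside the epididymis and testis, taken whole from male C57BL/6 mice labelled wild type and Fm, a generation name that the labels do not spell out. The zygotes came from in vitro fertilisation by the treatment label and were injected with let-7d, let-7e or a negative control, so all 3 groups share the fertilisation and the injection. After weaning the mice had chow to week 6 and then a low-fat diet to week 15, while the age label reads 24 weeks; which of these is the age at collection is not resolved here. Each group was labelled with 6 samples, and 5 control, 6 let-7d and 6 let-7e libraries were analysed, control replicate 5 not being analysed here. Fathers, litters and pooling are not given, so the p-values measure the spread between these samples.

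The mitochondrial ribosome translates only the messenger RNAs of the mitochondrial genome, which encode core subunits of the respiratory chain and of ATP synthase. Its ribosomal RNAs are made in the mitochondrion, whereas all of its proteins are encoded in the nucleus, made in the cytosol and imported, so both subunits have to be supplied from many separate nuclear genes. In fat cells the respiratory chain it helps to build burns fatty acids and supplies energy for fat storage.

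The mature 5p forms of let-7d and let-7e are shown first because their seed, bases 2 to 8, is what pairs with target messenger RNAs. Which form was injected is not resolved here, and levels of mature let-7 in the fat were not examined. The mature RefSeq sequences (GRCm38.p6) lie at chr13:48536078-48536099 on the minus strand for let-7d and chr17:17830366-17830387 on the plus strand for let-7e, and capitals mark the seed:
let-7d-5p: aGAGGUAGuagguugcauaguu
let-7e-5p: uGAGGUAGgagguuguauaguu
Both microRNAs have the same seed, GAGGUAG. Its 7-base match, CTACCTC, was found in the longest annotated 3′ UTR of 5 of the 77 members (6.49%), against 1433 of 13708 measured protein-coding genes (10.5%). The members' 3′ UTRs were also shorter, with a median of 390 bases against 1146 bases. The 5 matches are printed in their surroundings, with the match in capitals:
Mrpl15: caagcagagtggCTACCTCacatagaa
Mrpl17: aggtatggggcaCTACCTCctggctca
Mrpl21: actcctctgtctCTACCTCgcatctcc
Mrpl51: atcctcctgcctCTACCTCcagagtga
Mrps25: ttgatgccatgaCTACCTCagaacacc
In Mrpl15 and Mrps25 the match is followed by an A. A match of letters is a description and does not show that the microRNA binds there.

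Library totals ran from 12717365 reads (let-7d replicate 6) to 28972306 reads (let-7d replicate 1). All 10 adipocyte markers were measured in each group, with summed levels of 20190 to 45460 CPM over the 17 libraries. Transcripts of neighbouring organs stood out in 4 libraries. Control replicate 3 had 17710 CPM of epididymis and vas deferens markers (5 of 10 measured) and 13920 CPM of smooth muscle markers. Control replicate 6 had 1436 CPM of spermatid markers, and let-7d replicates 1 and 5 held transcripts of absorptive and ciliated epithelium, with 706.0 CPM in let-7d replicate 1 beside 621.0 CPM in control replicate 3. Let-7d replicates 1 and 2 and let-7e replicates 1 and 2 carry sample identifiers of an earlier series (early), which held no control, and the other 13 libraries a later one (late); what the series stands for is not labelled. The series was a term in the reported fits.

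Relative to the length of the transcript, levels spread over a wide range within each subunit. In CPM per kilobase of merged exons, Mrps21 (77.1), Mrps6 (51.8) and Mrps7 (40.7) were the highest of the small subunit. Mrpl34 (59.7), Mrpl12 (53.5) and Mrpl2 (53.0) were the highest of the large subunit. Mrpl12 is the stalk protein that meets translation factors, Mrpl2 lies by the centre where peptide bonds are made, and Mrps7 belongs to the head of the small subunit. At the low end stood Mrpl23 (1.55), Mrpl47 (2.50) and Mrpl19 (2.58), of which Mrpl23 is a protein of the rim of the exit tunnel, and Mrps35 (2.76), Mrps30 (3.42) and Mrps10 (3.95). Subunits are taken from the symbol here, although Mrps30 and Mrps18a sit in the large subunit and Mrps36 belongs to another complex. The subunit medians by symbol were 15.4 CPM per kilobase for the 48 large-subunit genes and 9.42 for the 29 small-subunit genes. With the longest transcript as the length, the medians were 19.6 and 14.5, so the size of this gap depended on the length used. The order of members depended on it too. By that length Mrpl20 (80.7), Mrpl14 (63.1) and Mrpl12 (62.25) were the highest of the large subunit. In the small subunit Mrps15 (54.0) then came before Mrps7 (42.9), and Mrps25 (4.82) was the lowest.

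**Figure D1:**
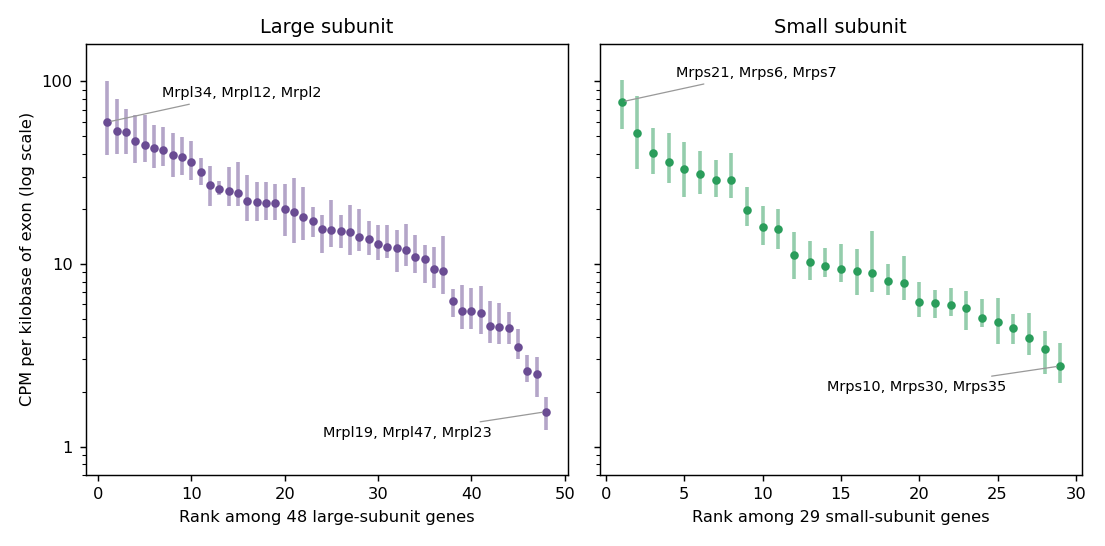
Level of each member in CPM per kilobase of merged exons (log scale), ranked within the 48 large-subunit genes (left) and the 29 small-subunit genes (right); points are means over the 17 libraries and bars run from the lowest to the highest library. By this length, and with subunits taken from the symbol, Mrps21 at 77.1 heads the small subunit and Mrpl34 at 59.7 the large one. Mrpl23 at 1.55 is the lowest member.

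From one library to the next the members varied little. The SD of log2 CPM over the 17 libraries had a median of 0.20 over the 77 members, 0.33 over all 16452 genes and 0.24 over the genes whose mean CPM lay in the members' range. Mrpl24, whose bacterial counterpart starts large-subunit assembly, was the steadiest with an SD of 0.08, followed by Mrps5 (0.13) and Mrpl3 (0.13). Mrps6, a small-subunit protein, varied most with an SD of 0.37, ahead of Mrpl34 (0.33) and Mrpl12 (0.31).

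What variation there was ran through nearly the whole set at once. In control replicate 1, 75 of the 77 members lay above their own mean over the 17 libraries, with a median excess of 0.35 on the log2 CPM scale, and 37 members had their highest value there. In let-7d replicate 4 it was 76 of 77, with a median of 0.34 and 34 highest values. Let-7d replicate 1 was at the other end: 3 members lay above their mean, the median was -0.28 and 43 members had their lowest value there. The extremes thus came from the control and let-7d groups, and the 6 let-7e libraries lay between a median of -0.15 (replicate 2) and 0.13 (replicate 1). The plot of members by library shows these shifts.

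**Figure D2:**
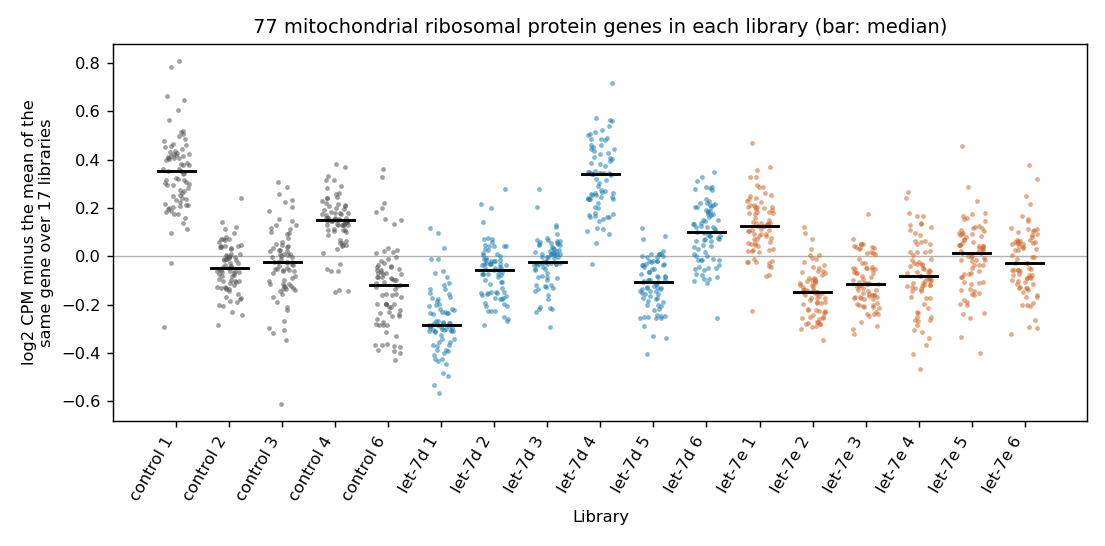
Log2 CPM of each of the 77 members minus that gene's mean over the 17 libraries (vertical axis), by library (horizontal axis; control grey, let-7d blue, let-7e orange); points are genes and black bars are medians. The medians of control replicate 1 (0.35) and let-7d replicate 4 (0.34) are highest and that of let-7d replicate 1 (-0.28) is lowest.

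Part of these shifts moved with the scaling between libraries. Control replicate 1 had the lowest TMM factor (0.847), which raises its CPM, and let-7d replicate 1 the highest (1.178). Over the 17 libraries the TMM factor and the mean level of the members had r = -0.775, and the share of reads in the 10 most abundant genes had r = 0.665. The CPM are themselves divided by the TMM factor, so part of that negative r is arithmetic. Without the TMM factor, an alternative chosen with these values in view, the median deviation was 0.11 in control replicate 1, 0.25 in let-7d replicate 4 and -0.05 in let-7d replicate 1. Members together took 0.263% (let-7e replicate 6) to 0.348% (let-7d replicate 4) of a library's reads. The part of scaling in the shifts was not tested further.

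The 2 subunits kept step. The mean log2 CPM of the large-subunit members and that of the small-subunit members had r = 0.993 (Spearman's rho 0.958) over 17 libraries, 0.983 without control replicate 1 and let-7d replicate 4, 0.991 in the 13 late libraries and 0.983 without the TMM factor. The points share library and scaling, so this is a description and carries no p. The difference, large minus small, stayed between 0.18 (let-7e replicate 4) and 0.26 (control replicate 3) on the log2 scale.

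**Figure D3:**
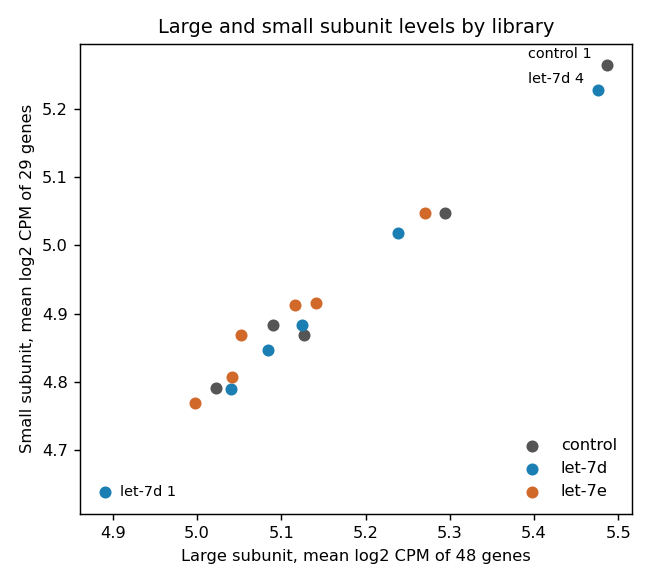
Mean log2 CPM of the 48 large-subunit genes (horizontal axis) against that of the 29 small-subunit genes (vertical axis), with 1 point per library (control grey, let-7d blue, let-7e orange). The 17 points lie along a line (r = 0.993), with control replicate 1 and let-7d replicate 4 at the top and let-7d replicate 1 at the bottom.

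Single members followed the rest of the set to different degrees. The correlation of a member with the mean of the other 76 had a median of 0.832 over the 77 members, with quartiles of 0.724 and 0.892, while the same value for all genes had a median of -0.048 and quartiles of -0.315 and 0.291. Mrps23 followed most closely (0.963), and Mrpl23 (0.258), Mrpl47 (0.317) and Mrps6 (0.376) least. Mrpl23 and Mrpl47, both proteins beside the exit tunnel, had mean levels of 7.57 and 11.1 CPM.

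Other nuclear genes for mitochondria moved with the members. Over the 17 libraries the mean of the members had r = 0.965 with 5 mitochondrial ribosome proteins that carry other names (Dap3, Ptcd3, Chchd1, Aurkaip1 and Gadd45gip1) and r = 0.955 with 82 nuclear subunits of oxidative phosphorylation. With 17 markers of mitochondrial content r was 0.950. Without the TMM factor these values were 0.911, 0.833 and 0.858. Lists of nuclear partners had r = 0.903 (ribosome assembly), 0.896 (mitochondrial aminoacyl-tRNA synthetases), 0.846 (mitochondrial transcription and RNA stability) and 0.799 (mitochondrial translation factors). Without the TMM factor they were at 0.677, 0.665, 0.505 and 0.646. For the 8 measured messenger RNAs of the mitochondrial genome, the templates of this ribosome, r was 0.668, and for its 2 ribosomal RNAs, mt-Rnr1 and mt-Rnr2, it was 0.395. Without the TMM factor these were 0.389 and 0.117, and without control replicate 1 and let-7d replicate 4 they were 0.492 and 0.354. The 76 cytosolic ribosomal proteins had r = 0.503, which was 0.010 without control replicate 1 and let-7d replicate 4. Adipocyte markers had r = 0.575 (0.045 without the TMM factor) and macrophage markers r = -0.656 (-0.567). In whole tissue, fewer cells of a type and less of an RNA in each cell cannot be told apart.

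By group, the mean log2 CPM over the members was 5.12 ± 0.19 (SD, n = 5) in controls, 5.05 ± 0.20 (SD, n = 6) in let-7d and 5.02 ± 0.10 (SD, n = 6) in let-7e libraries. Controls ran from 4.93 to 5.40, let-7d from 4.80 to 5.38 and let-7e from 4.91 to 5.19. These means pool both identifier series, and the early series held no control. The early libraries had 4.97 ± 0.165 (SD, n = 4) and the late ones 5.09 ± 0.156 (SD, n = 13). Let-7d replicates 1 and 2, both early, were at 4.796 and 4.995, and the late let-7d libraries ran from 4.945 to 5.383. The let-7e range lay inside the let-7d range and overlapped the controls, and the group means differed by less than the SD within the control group.

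The comparison of let-7d with control asked whether the injected microRNA changed the mitochondrial ribosome genes in adult fat, and no member passed the test. By edgeR's quasi-likelihood test with Benjamini-Hochberg adjustment over 16452 genes, 0 of 77 members and 0 genes in all (0.0%) had an adjusted p under 0.05. The smallest adjusted p of a member was 0.473. At an unadjusted p under 0.05 stood 1 member, Mrpl1 (1.30% of the 77), against 1676 of all genes (10.2%). The median log2 fold change was -0.05 for the large subunit and -0.05 for the small one, beside -0.04 for all genes. Of the members 49 were below 0 and 28 above, and 57.5% of all genes were below 0. Single libraries turned that balance: without control replicate 1, 23 members were below 0 (median 0.06), and without let-7d replicate 4 it was 66 (median -0.11). In no member were the 2 groups without overlap, against 0.517% of all genes. In the 13 late libraries alone the median over members was 0.01 and 35 members were below 0. DESeq2 called 10 genes (0.0608%) and limma-voom, run with sample quality weights here and below, called 0, with no member among them.

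Mrpl1, which builds the flexible stalk by the ribosome's exit site, is at chr5:96209493-96266727 on the plus strand. Its levels in control replicates 1, 2, 3, 4 and 6 were 23.4, 17.3, 23.1, 19.8 and 21.6 CPM. In let-7d libraries they ran from 16.1 over a median of 18.2 to 20.4 CPM. Control replicates 2 and 4 lay within the let-7d range, so the groups overlapped, and the log2 fold change was -0.25 (SE 0.11, edgeR adjusted p = 0.473). Mrpl45, a protein that ties the ribosome to the inner membrane at the tunnel exit, had 48.2, 41.8, 39.2, 43.6 and 46.4 CPM in the same 5 controls. Let-7d libraries had 29.6 to 44.6 CPM with a median of 36.6 (log2 fold change -0.17). The upper let-7d libraries lay among the controls. Mrpl38 (-0.22) and Mrpl39 (-0.21), large-subunit proteins with no bacterial counterpart, were the other members named for low values, with adjusted p of 0.533 and 0.530 by edgeR. With 1 library left out at a time, Mrpl38 ran from -0.28 to -0.08 and Mrpl39 from -0.27 to -0.12, each nearest 0 without control replicate 1.

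On the high side Mrps6 stood apart in size. Its levels were 62.8, 91.0, 50.4, 75.3 and 59.4 CPM in control replicates 1, 2, 3, 4 and 6. In let-7d they were 58.2 to 126.6 CPM with a median of 91.4, and in let-7e 58.2 to 105.5 CPM with a median of 78.7. The groups overlapped widely, with control replicate 2 near the let-7d median. The log2 fold change was 0.41 (SE 0.22, 95% interval -0.05 to 0.87, edgeR adjusted p = 0.531) in let-7d and 0.30 (SE 0.22, adjusted p = 0.651) in let-7e. Next came Mrpl33 (0.16), Mrps22 (0.15) and Mrpl40 (0.11), none with an adjusted p under 0.643. Without let-7d replicate 4 the first 2 of these were at 0.07 (Mrpl33) and 0.06 (Mrps22), and Mrpl40 was at -0.02.

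Mrps6 shares 159 exon bases on the same strand with Slc5a3, the gene of an inositol transporter. Slc5a3 had 40.6 to 76.6 CPM in controls, 56.4 to 163.1 CPM in let-7d and 47.1 to 152.9 CPM in let-7e, with log2 fold changes of 0.89 (SE 0.27, edgeR adjusted p = 0.456) and 0.65 (SE 0.27, adjusted p = 0.423). The 2 genes had r = 0.702 (rho 0.659, r = 0.730 without the 2 libraries farthest from the Slc5a3 median) over the 17 libraries. How reads in the shared exon were assigned is not given, so the value of Mrps6 is uncertain to that extent. In all, 24 members share exon bases with another measured gene, 3 of them on the same strand and 21 on the opposite one. Most of the exon length is shared in Mrps25 with Nr2c2 (69.8%) and in Mrps34 with Mapk8ip3 (63.4%). Mrpl46 and Mrps11, both members, overlap each other by 173 bases. Whether the counting used strand is not given in the sources used here.

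In the comparison of let-7e with control, which uses the same controls, 64 of the 77 members lay on the low side and none passed the test. The count of 64 rested on control replicate 1: without it, 30 of the 77 were below 0 and the median over members was 0.02. With edgeR 0 of 77 members and 0 of all genes (0.0%) had an adjusted p under 0.05, and the smallest for a member was 0.365. At an unadjusted p under 0.05 stood 1 member, Mrpl39, against 1729 of all genes (10.5%). The median log2 fold change was -0.07 for either subunit and -0.04 for all genes. The members below 0 were 39 of 48 in the large and 25 of 29 in the small subunit, against 58.1% of all genes. Other settings moved the median over members either way. It was -0.11 in the late libraries (65 members below 0) and -0.17 with limma-voom (75 below 0). Without the 4 libraries that held neighbouring-organ transcripts it was -0.15 (73 below 0). The medians of all genes in these 3 fits were -0.03, -0.02 and 0.02. The median over members was 0.03 with replicate number as a block (28 below 0) and -0.045 without control replicate 4 (45 below 0). DESeq2 called 15 genes (0.0912%) and limma-voom 0, with no member among them. These fold changes are small next to the precision: the median distance from a fold change to its 95% bounds was 0.27.

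Mrpl39 (chr16:84717576-84735742, minus strand) had 41.7, 28.8, 29.8, 34.7 and 38.6 CPM in control replicates 1, 2, 3, 4 and 6. In let-7e it had 24.6 to 29.6 CPM with a median of 27.3, and in let-7d 25.9 to 34.3 CPM with a median of 29.2. Control replicate 2 lay within the let-7e range, replicate 3 just above it, and replicates 1, 4 and 6 well above it. The log2 fold change for let-7e was -0.32 (SE 0.11, 95% interval -0.55 to -0.09, edgeR adjusted p = 0.365), and it ranged from -0.38 to -0.24 when each library was left out in turn.

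Mrpl22, whose bacterial counterpart lines the exit tunnel, was the only member whose let-7e and control values did not overlap; 0.632% of all genes did not overlap in that comparison. It is at chr11:58171661-58179565 on the plus strand. Its controls had 19.5, 14.4, 13.7, 14.7 and 13.8 CPM, and let-7e libraries had 11.6 to 13.4 CPM with a median of 12.4. Control replicate 1 was far above the other 4 controls, which lay within 1 CPM of each other and just above the let-7e range. The log2 fold change was -0.25 (SE 0.13, edgeR adjusted p = 0.508), and it ranged from -0.28 to -0.14 over the fits with 1 library left out. Mrpl47, at the tunnel exit, had 8.29 to 13.4 CPM in let-7e and 9.96 to 13.7 CPM in controls, with a log2 fold change of -0.27 (adjusted p = 0.498). Mrpl1 had -0.23 (adjusted p = 0.491).

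**Figure D4:**
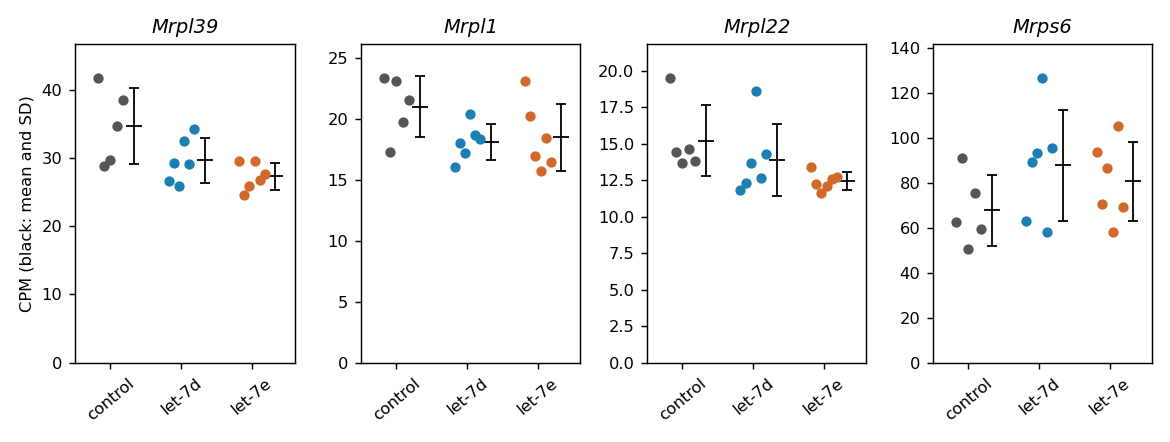
CPM of Mrpl39, Mrpl1, Mrpl22 and Mrps6 in each library (vertical axes, all from 0) by group (control grey, n = 5; let-7d blue, n = 6; let-7e orange, n = 6), with the mean and SD of each group in black. Mrpl22 runs from 11.6 to 13.4 CPM in let-7e, below all controls, while in the other panels the groups overlap.

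On the high side of let-7e the values were smaller than those on the low side, Mrps6 apart. Mrps33 had a log2 fold change of 0.08, Mrpl35 of 0.08 and Mrpl33 of 0.06, each with an edgeR adjusted p of at least 0.887. The intervals set limits on what could have been missed. In let-7d against control, 73 of 77 members had a 95% interval within ±0.5 on the log2 scale, the others being Mrpl12, Mrps2, Mrps22 and Mrps6. In let-7e against control it was 71, the others being Mrpl22, Mrpl34, Mrpl39, Mrpl47, Mrps2 and Mrps6. All 77 lay within ±1, a 2-fold change, in each comparison.

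**Figure D5:**
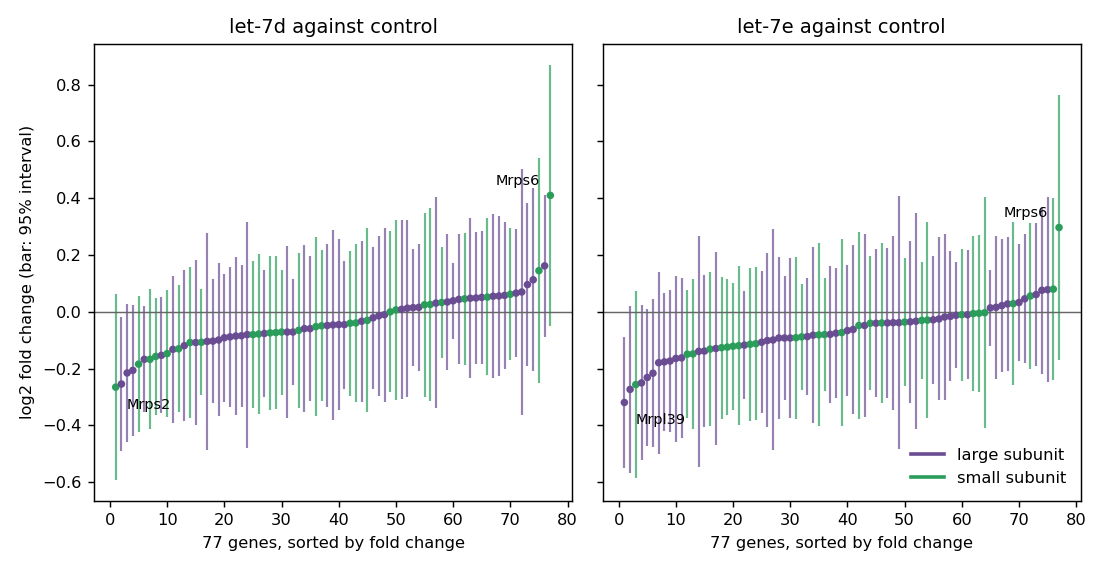
Log2 fold change (points) with its 95% interval (bars) for the 77 members, sorted from lowest to highest, in let-7d against control (left) and let-7e against control (right); large-subunit genes are violet and small-subunit genes green. Mrps6 is highest in both panels (0.41 and 0.30), and the lowest is Mrps2 (-0.27) for let-7d and Mrpl39 (-0.32) for let-7e.

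Between the 2 microRNAs no difference passed the test either. For let-7e against let-7d, 0 of 77 members and 0 of all genes (0.0%) had an edgeR adjusted p under 0.05, and 0 members stood at an unadjusted p under 0.05, against 6.67% of all genes. DESeq2 called 14 genes (0.0851%) and limma-voom 0, none of them a member. The median was -0.05 for the large subunit, -0.03 for the small one and -0.01 for all genes, and 51 members were below 0, against 53.1% of all genes. In no member were the groups without overlap, against 0.237% of all genes. In the late libraries alone the median over members was -0.14. Let-7d replicate 4 weighs on that sign: without it the median over members was 0.02 and 30 members were below 0. Mrpl45 (0.16), Mrps24 (0.09), Mrps30 (0.10) and Mrps9 (0.13) were named on the high side. Mrpl47 (-0.23), Mrpl50 (-0.19), Mrpl22 (-0.15) and Mrps17 (-0.11) were named on the low side. No adjusted p among these 8 was under 0.753.

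The count of members at an unadjusted p under 0.05 depended on the fit and on single libraries. With limma-voom and its library weights, which change together here, it was 8 for let-7d, 16 for let-7e and 2 for let-7e against let-7d, all on the low side, and the shares of all genes were 13.4%, 10.9% and 9.68%. The 16 for let-7e, 20.8% of the members, are a larger share than that of all genes, whereas edgeR gives a smaller one. Without control replicate 2 edgeR gave 5 members for let-7d (6.49%, against 16.5% of all genes) and 6 for let-7e (7.79%, against 16.6%). Without let-7d replicate 4 it gave 5 members for let-7d, against 8.69% of all genes. Without control replicates 3 and 6 and let-7d replicates 1 and 5, the libraries with neighbouring-organ transcripts, 7 members stood at that level for let-7e (9.09%, against 6.86%), and 73 of 77 were below 0. In no fit run did a member have an adjusted p under 0.05.

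At the working centres of the ribosome the groups overlapped. Mrps12, at the decoding centre of the small subunit, had 42.8, 34.6, 31.2, 36.2 and 29.1 CPM in control replicates 1, 2, 3, 4 and 6. Let-7d had 25.02 to 43.3 CPM (log2 fold change -0.05) and let-7e 26.5 to 33.1 CPM (-0.11). Let-7d reached below and slightly above the control range, and let-7e ran from below the lowest control into that range. Mrpl3, near the peptidyl transferase centre, had -0.07 in let-7d and -0.12 in let-7e. Mrpl12, the stalk protein, had 121.8, 69.7, 64.2, 94.5 and 62.3 CPM in the controls, 61.1 to 115.0 CPM in let-7d and 64.5 to 102.6 CPM in let-7e. Its 5 controls alone covered nearly the whole range, and its log2 fold changes were 0.07 and -0.04, each with a sign that other settings turned.

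Among mitochondria-specific proteins and paralogs no fold change passed the test either. Mrpl44, a large-subunit protein with the fold of an RNase III enzyme, had -0.11 in let-7d and -0.16 in let-7e, and Mrps34, specific to the mitochondrial small subunit, had -0.07 and -0.01, values whose sign other settings turned. The bacterial protein S18 has 3 mitochondrial counterparts, of which Mrps18a sits in the large subunit and Mrps18b and Mrps18c in the small one. Their log2 fold changes for let-7d and let-7e were -0.15 and -0.15 (Mrps18a), -0.08 and -0.15 (Mrps18b) and -0.17 and -0.13 (Mrps18c). Without control replicate 1 these pairs were nearer 0, at -0.06 and -0.06, -0.02 and -0.09, and -0.08 and -0.04. Mean control levels were 45.3 ± 6.15 CPM for Mrps18a, 17.9 ± 2.36 CPM for Mrps18b and 23.2 ± 3.19 CPM for Mrps18c (SD, n = 5). Mrps30 also sits in the large subunit, and Mrps36 is now known as a subunit of 2-oxoglutarate dehydrogenase. Their values were -0.04 and 0.06 for Mrps30 and 0.02 and -0.05 for Mrps36, with signs that other settings turned. With subunits assigned by structure, 50 large and 26 small, the medians for let-7e stayed at -0.07 and -0.08.

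The 5 members with a let-7 seed match had small fold changes. Their median was -0.05 in let-7d against control, with 4 of 5 below 0, and -0.04 in let-7e, with 5 of 5 below 0. The 72 members without a match had medians of -0.05 and -0.08, with 45 and 59 below 0. None of the 5 stood at an unadjusted p under 0.05, and their values lay between -0.09 and 0.05 in both comparisons.

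Genes that serve the mitochondrial ribosome were read from lists of its partners, and with edgeR none had an adjusted p under 0.05. Of 27 assembly and ribosomal RNA modification genes, 18 were below 0 in let-7d and 21 in let-7e, with medians of -0.04 and -0.10. Of all genes, 57.5% and 58.1% were below 0. Tfb1m, which methylates the small ribosomal RNA, had 7.06 ± 2.09 CPM in controls (SD, n = 5), 4.81 ± 0.32 in let-7d (SD, n = 6) and 5.14 ± 0.60 in let-7e (SD, n = 6). Its log2 fold changes were -0.55 (SE 0.19, adjusted p = 0.456) and -0.46 (SE 0.19, adjusted p = 0.417). Rcc1l (-0.22 in let-7d) and Fastkd2 (-0.29 in let-7e), both assembly factors, were the next named.

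Translation factors (14 of 15 measured) had 11 below 0 in either comparison with control, with medians of -0.07 and -0.10. For this list and those that follow, 57.5% of all genes were below 0 in let-7d and 58.1% in let-7e. Mitochondrial aminoacyl-tRNA synthetases and the related amidotransferase (20 genes) had 15 below 0 in either, with Hars2 at -0.20 and Gatb at 0.38 in let-7d and Rars2 at -0.35 in let-7e. The 10 genes of mitochondrial transcription and RNA stability had medians of -0.08 and -0.09, with Tfam, the factor that packs mitochondrial DNA, at -0.15 and -0.13. Of the ribosomal RNAs of the mitochondrial ribosome, mt-Rnr1 was at 0.13 and mt-Rnr2 at 0.12 in let-7e, and at -0.21 and -0.08 in let-7d. All 8 measured messenger RNAs of the mitochondrial genome, of 13, were below 0 in both comparisons with control, with medians of -0.32 and -0.19. None stood at an unadjusted p under 0.05. Control replicate 1 had their highest mean level of the 17 libraries, 11.6 log2 CPM, where the other controls had 10.3 to 11.2. It was also the highest library for the assembly, translation factor, synthetase and transcription lists. How far these low sides rest on that library was not tested. The 76 cytosolic ribosomal proteins had medians of 0.08 in let-7d and -0.07 in let-7e. In let-7e against let-7d all 76 were below 0, where 53.1% of all genes were, with a median of -0.16, beside -0.04 for the mitochondrial ones. Of the 76, 24 stood at an unadjusted p under 0.05 on the low side, against 3.32% of all genes, and none had an adjusted p under 0.05. Let-7d replicate 4 stood apart here, with a mean of 7.45 log2 CPM over the 76. The other let-7d libraries had 7.02 to 7.12 and the let-7e libraries 6.826 to 7.085. How far the low side rests on let-7d replicate 4 was not tested.

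Because the members varied together over the libraries, their promoters were read for short motifs. RefSeq promoters, 250 bases before to 50 after the start, matched 68 of the 77 members and gave 74 promoters, 3 members having more than 1 start. The motifs were searched on both strands, and a promoter with matches on both strands was counted once; GCATGCGC overlaps its own reverse complement. The ETS motif CCGGAAG, bound by GABPA, was in 25 of 74 (33.8%), against 15.7% of 14535 promoters of measured genes and 8.86% of 32851 promoters in all. The YY1 motif AAGATGG was in 13 (17.6%, against 6.67% and 6.34%). The NRF1 motif GCATGCGC was in 8 (10.8%, against 4.58% and 2.71%). The ERR motif AAGGTCA was in 4 (5.41%, against 3.55% and 4.72%), and TATAAA was in 5 (6.76%, against 7.86% and 13.6%). These are shares of letters, with no test.

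The promoter bases of 4 members are shown as examples of these motifs, each read 5′ to 3′ from before the start with exon bases left out; capitals mark ETS, NRF1 or YY1 matches in either orientation. They lie (GRCm38.p6) at chr11:58171414-58171660 for Mrpl22, chr8:71464676-71464925 for Mrpl34 and chr14:54426659-54426908 for Mrpl52, all on the plus strand, and at chr9:98601680-98601929 on the minus strand for Mrps22:
Mrpl22: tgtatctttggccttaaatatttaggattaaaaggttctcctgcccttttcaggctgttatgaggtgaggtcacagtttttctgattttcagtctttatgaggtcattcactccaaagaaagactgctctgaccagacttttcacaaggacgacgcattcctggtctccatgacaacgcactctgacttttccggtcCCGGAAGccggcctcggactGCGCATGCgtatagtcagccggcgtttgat
Mrpl34: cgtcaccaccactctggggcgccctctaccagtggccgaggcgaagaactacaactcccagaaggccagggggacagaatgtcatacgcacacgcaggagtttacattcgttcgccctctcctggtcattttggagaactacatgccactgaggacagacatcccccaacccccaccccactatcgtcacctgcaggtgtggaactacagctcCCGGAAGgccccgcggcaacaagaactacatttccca
Mrpl52: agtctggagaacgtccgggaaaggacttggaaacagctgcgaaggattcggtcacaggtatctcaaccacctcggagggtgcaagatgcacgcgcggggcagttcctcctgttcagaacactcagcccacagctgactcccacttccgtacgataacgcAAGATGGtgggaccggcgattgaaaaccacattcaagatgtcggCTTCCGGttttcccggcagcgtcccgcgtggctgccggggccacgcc
Mrps22: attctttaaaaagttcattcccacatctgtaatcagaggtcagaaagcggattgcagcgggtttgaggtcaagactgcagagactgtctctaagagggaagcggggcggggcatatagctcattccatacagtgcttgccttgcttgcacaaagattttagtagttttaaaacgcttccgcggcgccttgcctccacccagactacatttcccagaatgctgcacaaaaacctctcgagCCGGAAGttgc
Mrpl22 holds an ETS and an NRF1 match, Mrpl52 a YY1 and an ETS match, and Mrpl34 and Mrps22 an ETS match. Over the 17 libraries these 4 members had r = 0.878 (Mrpl22), 0.935 (Mrpl34), 0.724 (Mrpl52) and 0.748 (Mrps22) with the mean of the other members. No data on factor binding were used, and no link between motif and level was tested.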

How the data were processed

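RNA of whole eWAT was sequenced on an Illumina NovaSeq after TRI reagent extraction, per the labels' protocols. The deposited table gives whole-number read counts per Ensembl gene after a CPM filter named in its title, with no threshold stated; STAR (version not stated) and GRCm38.p6 are named per the submitters' processing notes, and the counting tool and its strand setting are not given in the sources used here. A second deposited table was not used.

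Symbols, positions and exon lengths came from GENCODE M21 (GRCm38). Counts were scaled by TMM and tested in R 4.3.3 with edgeR 4.0.16 (quasi-likelihood, two-sided, terms for group and identifier series) over all 16452 genes and 17 libraries; filterByExpr removed 0 genes. Benjamini-Hochberg adjustment ran over all genes with a threshold of 0.05. Alternatives used DESeq2 1.42.0, limma 3.58.1, other scaling, filters and libraries. CPM include the TMM factor; log2 CPM in correlations used a prior count of 2. In simulated data 100 genes were changed per fold among the 16452, and every gene was given the same spread. That spread was near the common coefficient of variation of the reported fit (0.36). There edgeR recovered 25% at 2-fold and 98% at 4-fold in the let-7d against control comparison. The shares were 24% and 100% with let-7e in place of let-7d, and 42% and 100% between the 2 microRNAs. The members varied less than all genes (median SD of log2 CPM 0.20 against 0.33), so these shares do not carry over to them.

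Named members are the 4 with the smallest p per direction and comparison, 10 fixed members (Mrpl12, Mrpl44, Mrps12, Mrps18a, Mrps18b, Mrps18c, Mrps30, Mrps36, Mrpl3 and Mrps34), the 3 highest and 3 lowest per length in each subunit and the 3 with the most and least spread. Of other lists the 2 genes with the smallest p were eligible. Mrps2, Mrps15, Mrps23, Mrpl14, Mrpl20, Mrpl34, Mrpl52 and Slc5a3 were named in places after their values were seen. The members and lists were chosen with earlier results of these data known, so no list carries a test. The closest libraries of a group differed by 14.42 in chi-square per degree of freedom, so none was counted as a duplicate.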

Additional observations from a re-analysis of the deposited data

Results flagged for a closer look

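Among 84 groups of libraries over 28 measures, 3 held a library far from the others of its group; chance alone marks about 1 group in 20. Mrpl22 in control replicate 1 was at 4.29 log2 CPM, with the other 4 controls between 3.79 and 3.88. Mrps18a in let-7d replicate 1 was at 4.94 log2 CPM, with the other 5 between 5.34 and 5.53. Mrps9 in let-7d replicate 4 was at 5.37 log2 CPM, with the other 5 between 4.88 and 5.06. These are the libraries in which the members as a set were highest (control replicate 1 and let-7d replicate 4) or lowest (let-7d replicate 1).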

How the results depend on the processing

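No member had an adjusted p under 0.05 in any alternative, and leaving out 1 library at a time gave 0 genes called in each comparison. DESeq2 called 10 genes for let-7d against control, 15 for let-7e against control and 14 for let-7e against let-7d. For let-7d against control, 1 member stood at an unadjusted p under 0.05 in the reported fit. Such members were 0 in the late libraries (against 8.32% of all genes) and 0 with only the groups compared (against 6.13%). Without the series term they were 3 (3.9%, a smaller share than that of all genes). With limma-voom (with library quality weights throughout) they were 8 (10.4%, against 13.4%). With 1 library left out they were 0 to 5. The 5 came without control replicate 2 (6.49%, against 16.5%) and without let-7d replicate 4 (6.49%, against 8.69%). For let-7e against control, also 1 in the reported fit, they were 4 in the late libraries (5.19%, against 7.21% of all genes). They were 3 (3.9%) with a mean of at least 5 CPM, without the series term and with only the groups compared. The shares of all genes there were 8.84%, 11.9% and 6.47%. With limma-voom the members were 16 (20.8%, against 10.9%). Without the 4 libraries with neighbouring-organ transcripts they were 7 (9.09%, against 6.86%). With 1 library left out they were 1 to 6, with 6 without control replicate 2 (7.79%, against 16.6%). For let-7e against let-7d, 0 in the reported fit, they were 1 in the late libraries (1.3%, against 5.51% of all genes). They were 2 (2.6%) with limma-voom and without those 4 libraries, against 9.68% and 8.69%. With 1 library left out they were 0 to 2, with 2 without let-7d replicate 4 (2.6%, against 7.03%). Between groups, 16 pairs of libraries with the same replicate number had r from -0.33 to 0.50 (median -0.02, 6 over 0.1). The 80 pairs with different numbers had r from -0.44 to 0.405 (median 0.03, 27 over 0.1). Such correlations cannot show whether samples share a father or litter, which is not given. With the replicate block, 0 members stood at that level for let-7d (10.9% of all genes) and 1 for let-7e (1.3%, against 11.4%). The medians over members were then 0.06 and 0.03, with 25 and 28 members below 0. The cause of these shifts was not tested.

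Several subunit medians lie near 0 and changed sign. For let-7d the large subunit was at 0.02 in the late libraries. Over the fits with 1 library left out it ran from -0.11 to 0.07 (small subunit -0.12 to 0.04). For let-7e these ranges were -0.10 to 0.02 and -0.11 to 0.02. Fold changes that changed sign for let-7d against control, all far from the threshold, were Mrpl40 (-0.002 with limma-voom), Mrpl12 (-0.049 with limma-voom, -0.008 without the 4 libraries), Mrps12 (0.018 in late libraries, 0.021 with only the groups compared), Mrps30 (0.021 without the 4 libraries) and Mrps36 (-0.005 with limma-voom, -0.013 without the series term). With the replicate block they were Mrpl44 (0.054), Mrps12 (0.092) and Mrps34 (0.083). For let-7e they were Mrpl35 (-0.005 with limma-voom), Mrps33 (-0.038 with limma-voom, -0.069 without the 4 libraries), Mrps30 (-0.056 with limma-voom, -0.016 without the series term) and Mrps34 (0.003 with DESeq2, 0.004 with its size factors). With the block they were Mrpl12 (0.179), Mrps12 (0.033), Mrps36 (0.080) and Mrps34 (0.142). With 1 library left out the ranges for let-7d were -0.032 to 0.258 (Mrpl12), -0.017 to 0.195 (Mrpl40), -0.188 to 0.031 (Mrpl44), -0.136 to 0.044 (Mrps12), -0.115 to 0.005 (Mrps30), -0.133 to 0.006 (Mrps34) and -0.086 to 0.107 (Mrps36). For let-7e they were -0.115 to 0.152 (Mrpl12), -0.086 to 0.092 (Mrps34), -0.090 to 0.035 (Mrps36) and from just below 0 to 0.172 (Mrps33). Of the other alternatives for named fold changes, 724 with 1 library left out and 374 of other kinds kept their direction. Subunit medians per length were 19.6 and 14.5 CPM per kilobase with the longest transcript. Read depth limits Mrpl23 most, with 87 reads at its lowest.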
